A study of Mus musculus with 6 samples.

Results

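The collagen genes of the mouse colon are described here in tissue treated with trinitrobenzenesulfonic acid (TNBS) and in normal colon. Members were all genes of the deposited table whose symbol is Col, a type number, a and a chain number. There were 43 of them among 16906 genes, of which 11 encode chains of fibrillar collagens, 9 encode collagens of basement membranes and 23 encode other collagens. RNA was sequenced from 6 colon samples, 3 from mice given TNBS at 5% w/v into the colon through the anus and 3 from mice under normal feeding. All mice are labelled as wild type C57BL/6J males of 6 to 8 weeks and 20 to 22 g. The labels give neither the time after TNBS nor a vehicle for the normal group, so TNBS itself and the act of giving it cannot be told apart. The study's title names licochalcone B and FTO; samples treated with that compound were not analysed here.

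Collagens are triple helices of 3 chains, each chain the product of its own gene. Fibrillar collagens assemble into the rope-like fibres that give the submucosa its tensile strength, type IV collagens form the sheet under the epithelium and around vessels and muscle cells, and other types bind fibril surfaces, form fine filaments or span the cell membrane. TNBS is a hapten: it binds to proteins of the gut wall and sets off an inflammation that serves as a model of Crohn's disease, in which collagen can build up as scar tissue.

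The libraries held 20537026, 15185569 and 18381576 counts in TNBS replicates 1, 2 and 3, and 22999588, 23380492 and 21624206 counts in normal replicates 1, 2 and 3. A count of 3, the least read as detection, was worth 0.128 to 0.198 CPM (read counts scaled to a common library size, corrected with TMM for the make-up of each library). The TNBS libraries did not match each other in 3 respects. Y-linked transcripts, which should be present in males, stood at 0.697%, 103% and 38.2% of the normal mean in TNBS replicates 1, 2 and 3, against 92.1% to 114% in normal libraries. Mitochondrially encoded genes took 0.755%, 3.92% and 1.95% of counts in the TNBS libraries and 0.563% to 0.951% in the normal ones. Hoxb13, a marker of the hindmost gut, had 21.4, 0.194 and 0.308 CPM in TNBS replicates 1, 2 and 3, against 106, 57.7 and 7.37 CPM in normal replicates 1, 2 and 3. Another Hox gene, Hoxb6, had 8.95, 79.3 and 80.6 CPM in TNBS replicates 1, 2 and 3. In normal replicates 1, 2 and 3 it had 3.36, 3.72 and 11.5 CPM. TNBS replicate 1 thus lay within the normal range of Hoxb6, and TNBS replicates 2 and 3 lay far above it. The part of sex, of position along the colon and of RNA quality in the collagen values was not tested. The epithelial markers Epcam, Cdh1, Krt8, Krt18, Krt19, Krt20, Vil1 and Cdx2 were present in every library and summed to 7663 to 8949 CPM in TNBS colon and 9314 to 11063 CPM in normal colon.

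Collagen transcripts as a family did not move in one direction after TNBS. Of the 43 genes, 35 had enough counts to be tested (9 fibrillar, 8 of basement membranes, 18 other), and 19 of these had a log2 fold change above 0 and 16 below 0. The sign of 24 of the 35 turned in at least 1 of the alternative fits. Only Col8a1 passed the test, lower in TNBS colon, where 1.14% of all genes tested were called lower; no collagen was called higher, where 0.906% of all genes were (edgeR quasi-likelihood test, adjusted p under 0.05). DESeq2 called Col23a1 higher as well, where it called 5.01% of all genes higher. Without adjustment, a p under 0.05 was reached by 3 collagens that were higher (Col5a3, Col18a1 and Col23a1) and by 1 that was lower, where 10.8% and 10.2% of all genes reached it. What set the TNBS libraries apart in the collagens was their spread. The standard deviation of log2 CPM was wider in TNBS than in normal colon for 25 of the 35 tested collagens (71.4%), against 46.4% of all genes tested. TNBS replicate 1 was the highest of all 6 libraries for 18 of the 35 (51.4%, against 13.1% of all genes), and TNBS replicate 2 was the lowest of all 6 for 18 of the 35 (51.4%, against 28.9%).

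Collagen genes took 0.562%, 0.117% and 0.236% of the counts in TNBS replicates 1, 2 and 3. In normal replicates 1, 2 and 3 they took 0.360%, 0.316% and 0.262%. The 3 TNBS libraries therefore lay on both sides of the normal ones, 1 above and 2 below. The fibrillar share ran from 0.0388% to 0.350% in TNBS libraries and from 0.154% to 0.215% in normal libraries. The share of basement membrane collagens was 0.0808%, 0.0335% and 0.0429% in TNBS replicates 1, 2 and 3, against 0.0398%, 0.0353% and 0.0238% in normal replicates 1, 2 and 3. These are whole-tissue samples, in which fewer cells of a type and less RNA per cell cannot be told apart.

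**Figure D1:**
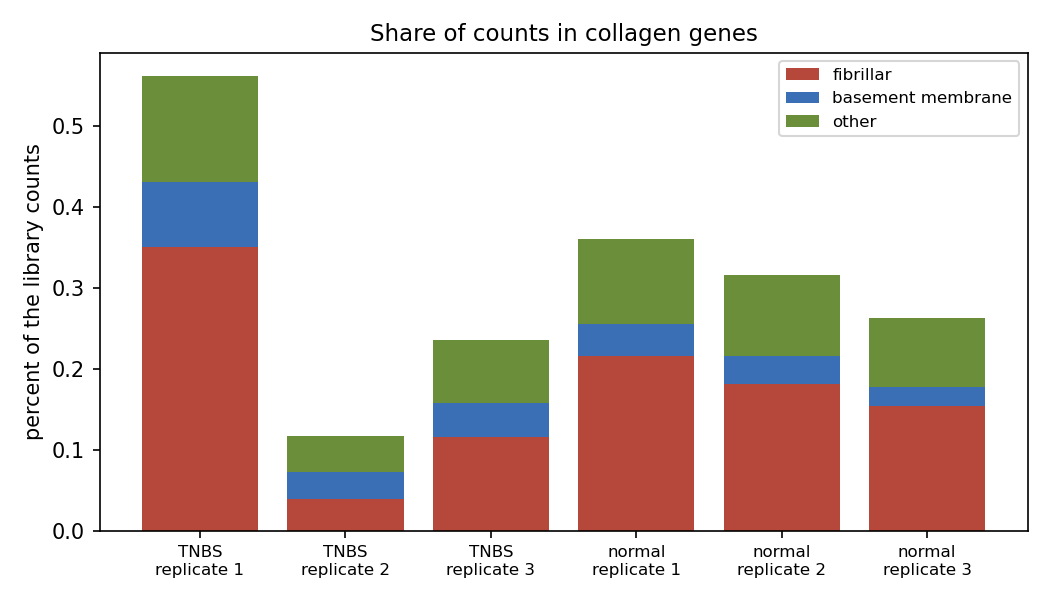
Percent of each library's counts (vertical axis) that fell in fibrillar, basement membrane and other collagen genes, as stacked bars for the 3 TNBS and the 3 normal libraries. The total is 0.562% in TNBS replicate 1 and 0.117% in TNBS replicate 2, and the normal libraries lie between them at 0.262% to 0.360%.

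Col8a1 encodes a chain of type VIII collagen, a short-chain collagen that forms hexagonal networks and is made by vascular smooth muscle and endothelium. It lies on chromosome 16, from 57624258 to 57754737 on the minus strand (GRCm38). Its level was 37.9, 27.02 and 24.2 CPM in TNBS replicates 1, 2 and 3. In normal replicates 1, 2 and 3 it was 82.9, 66.6 and 146.6 CPM. Every TNBS library was below every normal one, and normal replicate 3 stood highest. The means were 29.7 ± 7.22 CPM in TNBS colon and 98.7 ± 42.3 CPM in normal colon (SD, n = 3 each), and the fitted fold was 0.301, with a 95% interval of 0.184 to 0.494 (log2 fold change -1.73, SE 0.32, edgeR adjusted p = 0.0359). The direction held in every fit that left out a library, with log2 fold changes of -1.95 to -1.33. The call held without TNBS replicate 1 (edgeR adjusted p = 0.0141) and was lost without TNBS replicate 2, TNBS replicate 3 or any of the normal replicates (edgeR adjusted p = 0.0696 to 0.112). With TNBS replicate 2 alone against the normal libraries the adjusted p was 0.0671 and with TNBS replicate 1 alone it was 0.517, in edgeR fits that assume the lone library varies like the normal ones.

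The second chain of type VIII collagen, Col8a2, also lay lower in TNBS colon at a far lower level. It had 1.32, 0.0646 and 1.69 CPM in TNBS replicates 1, 2 and 3, against 4.58, 3.13 and 3.03 CPM in normal replicates 1, 2 and 3. The groups did not overlap, but the difference did not pass the test (log2 fold change -1.78, SE 0.86, edgeR adjusted p = 0.276). The value in TNBS replicate 2 rests on a single count. Smooth muscle markers, given here because smooth muscle is a source of type VIII collagen, summed to 5683, 3705 and 5928 CPM in TNBS replicates 1, 2 and 3 and to 6848, 7610 and 8973 CPM in normal replicates 1, 2 and 3. All 8 of these markers were tested, none was at 0 in any library and none was called. In 4 of the 8 every TNBS library was below every normal one, where 14.8% of all genes tested were. These were Des, Tagln, Cnn1 and Actg2, with log2 fold changes of -0.81, -0.39, -1.14 and -1.05. Myh11 overlapped between groups, with a log2 fold change of -0.72. Acta2, Smtn and Lmod1 had log2 fold changes of 0.03, 0.13 and 0.13. Markers of endothelium, the other named source, summed to 299.9, 523 and 320.4 CPM in TNBS replicates 1, 2 and 3 and to 185, 175 and 169.9 CPM in normal replicates 1, 2 and 3. The part of either cell type in the Col8a1 result was not tested.

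Promoter windows of 3 members are shown, Col8a1 as the called gene and Col3a1 and Col1a2 as the fibrillar genes with the most counts, whose levels ran in the same order over the TNBS libraries. Each is the 250 bases before the RefSeq start of the gene, 5′ to 3′ on the gene's strand (RefSeq, GRCm38.p6), with capitals for a match on either strand to the motif CCAAT, to the motif TATAAA or to the motif GGGCGG. Such a window was found for 34 of the 43 members.
Col8a1, chr16:57754738-57754987, minus strand: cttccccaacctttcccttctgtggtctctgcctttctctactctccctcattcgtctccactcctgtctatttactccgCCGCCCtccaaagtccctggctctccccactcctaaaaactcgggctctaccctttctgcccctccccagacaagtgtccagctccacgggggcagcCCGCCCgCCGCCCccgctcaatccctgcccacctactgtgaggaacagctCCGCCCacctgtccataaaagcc
Col3a1, chr1:45311288-45311537, plus strand: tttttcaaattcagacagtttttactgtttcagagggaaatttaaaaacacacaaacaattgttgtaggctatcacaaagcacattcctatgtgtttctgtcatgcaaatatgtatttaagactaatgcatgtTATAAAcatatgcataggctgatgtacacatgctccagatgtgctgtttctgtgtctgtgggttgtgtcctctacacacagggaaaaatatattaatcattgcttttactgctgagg
Col1a2, chr6:4505368-4505617, plus strand: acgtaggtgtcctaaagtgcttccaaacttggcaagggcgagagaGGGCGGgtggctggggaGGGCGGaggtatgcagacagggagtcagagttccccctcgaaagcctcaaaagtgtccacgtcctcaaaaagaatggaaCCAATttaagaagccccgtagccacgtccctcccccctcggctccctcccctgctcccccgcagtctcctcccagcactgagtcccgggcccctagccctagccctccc
The Col8a1 window holds 4 matches to GGGCGG, the Col3a1 window 1 match to TATAAA, and the Col1a2 window 1 match to CCAAT and 2 to GGGCGG. None of these matches overlap each other. Of 32851 promoter windows of the same length, 33.85% hold CCAAT, 12.37% hold TATAAA and 32.74% hold GGGCGG. The letters are a description of the windows, and binding there was not measured.

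Among the fibrillar collagens, the abundant chains of types I, III and V showed no shift common to the TNBS libraries. Their 9 tested members had a median log2 fold change of 0.03, against 0.01 over all genes tested, and none was called. That median was -0.51 when TNBS replicate 1 was left out, 0.40 when TNBS replicate 2 was left out and -0.49 with limma-voom. The TNBS libraries were spread far more widely than the normal ones, with a median standard deviation of log2 CPM of 1.23 in TNBS colon and 0.374 in normal colon. Over all genes tested the same medians were 0.301 in TNBS colon and 0.325 in normal colon. In 7 of the 9 members TNBS replicate 1 was the highest of all libraries and in 7 of the 9 TNBS replicate 2 was the lowest.

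Col3a1, the chain of type III collagen found in distensible tissue such as gut and vessel walls, had the highest level of any collagen per length in both groups. Averaged over libraries it stood at 86.4 CPM per kilobase of annotated exon in TNBS colon and 117 CPM per kilobase in normal colon. By library it was at 1800.3, 172 and 571 CPM in TNBS replicates 1, 2 and 3, against 1285, 1123 and 1030.3 CPM in normal replicates 1, 2 and 3. TNBS replicate 1 was above all normal libraries and TNBS replicates 2 and 3 were below them. The means were 848 ± 849 CPM in TNBS colon and 1146 ± 129 CPM in normal colon (SD, n = 3 each; log2 fold change -0.43, SE 0.65, edgeR adjusted p = 0.731).

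Type I collagen, the main fibre protein of scar, is built from the products of Col1a1 and Col1a2. Col1a1 was at 354, 21.1 and 86.1 CPM in TNBS replicates 1, 2 and 3. It was at 184, 159 and 108 CPM in normal replicates 1, 2 and 3 (log2 fold change 0.04, SE 0.76, edgeR adjusted p = 0.982). TNBS replicate 1 held 16.8 times the Col1a1 level of TNBS replicate 2, while the normal libraries differed from each other by at most 1.71 times. Col1a2 was at 637, 79.2 and 236 CPM in TNBS replicates 1, 2 and 3, against 376, 340.3 and 276 CPM in normal replicates 1, 2 and 3 (log2 fold change -0.06, SE 0.58, edgeR adjusted p = 0.964). Both genes therefore ranked the TNBS libraries in the same order, with the normal libraries in between the highest and the lowest.

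The result for these genes turned on which TNBS library was counted. A fit with a lone TNBS library takes its spread from the normal libraries only, so its calls do not test a group difference. With TNBS replicate 2 alone, the log2 fold change was -2.84 for Col1a1, -2.07 for Col1a2 and -2.74 for Col3a1. Y-linked transcripts were at the normal level in this library, but it had the highest mitochondrial share, 3.92%, and only 0.194 CPM of Hoxb13. It was the lowest of all libraries for 7 of the 9 tested fibrillar members. Lower fibrillar values in the fit with TNBS replicate 2 alone thus follow from the choice of library. In that fit 10 collagens were called lower, namely Col1a1, Col1a2, Col3a1, Col5a1, Col5a2, Col6a3, Col6a5, Col8a2, Col12a1 and Col14a1, where 3.21% of all genes were. With TNBS replicate 1 alone no collagen was called in either direction, where 0.201% of all genes were called higher and 0.221% lower. Without TNBS replicate 1, Col5a2, Col6a5, Col8a1 and Col12a1 were called lower, where 3.97% of all genes were. Col6a5 falls outside the rule for named genes and was named after its values were seen.

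Type V collagen sets the width of type I fibrils, and its 3 chains did not run alike. Col5a1 was at 186, 34.4 and 63.3 CPM in TNBS replicates 1, 2 and 3, against 125, 122.6 and 78.8 CPM in normal replicates 1, 2 and 3 (log2 fold change -0.20, SE 0.52, edgeR adjusted p = 0.849). Col5a2, which lies 24614 bases from Col3a1 on chromosome 1 and on the other strand, was at 255, 42.9 and 95.5 CPM in TNBS replicates 1, 2 and 3, against 172, 148 and 177 CPM in normal replicates 1, 2 and 3 (log2 fold change -0.34, SE 0.51, edgeR adjusted p = 0.736). Both followed the order seen for types I and III, TNBS replicate 1 highest and TNBS replicate 2 lowest. Col5a3, an alternative chain of type V, was at 23.8, 21.3 and 23.04 CPM in TNBS replicates 1, 2 and 3, against 12.7, 13.9 and 4.24 CPM in normal replicates 1, 2 and 3. Every TNBS library was above every normal one and the 3 TNBS values lay close together, at 22.7 ± 1.30 CPM against 10.3 ± 5.24 CPM in normal colon (SD, n = 3 each). The difference did not pass the test (log2 fold change 1.15, SE 0.40, edgeR adjusted p = 0.162).

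Col11a2, a chain of the cartilage collagen type XI, was the fibrillar member with the largest log2 fold change, 1.16 (SE 0.75, edgeR adjusted p = 0.40). It was at 1.68, 4.91 and 4.11 CPM in TNBS replicates 1, 2 and 3, against 2.18, 2.22 and 0.353 CPM in normal replicates 1, 2 and 3, and the groups overlapped. The other tested fibrillar members, Col11a1 and Col27a1, had log2 fold changes of 0.03 and 0.46. Col2a1, the main collagen of cartilage, had 1, 17 and 14 counts in TNBS libraries and 4, 6 and 0 in normal libraries, and Col24a1 had 0 in all TNBS libraries and 0, 0 and 10 in normal ones. Both were under the filter on low counts and were not tested.

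**Figure D2:**
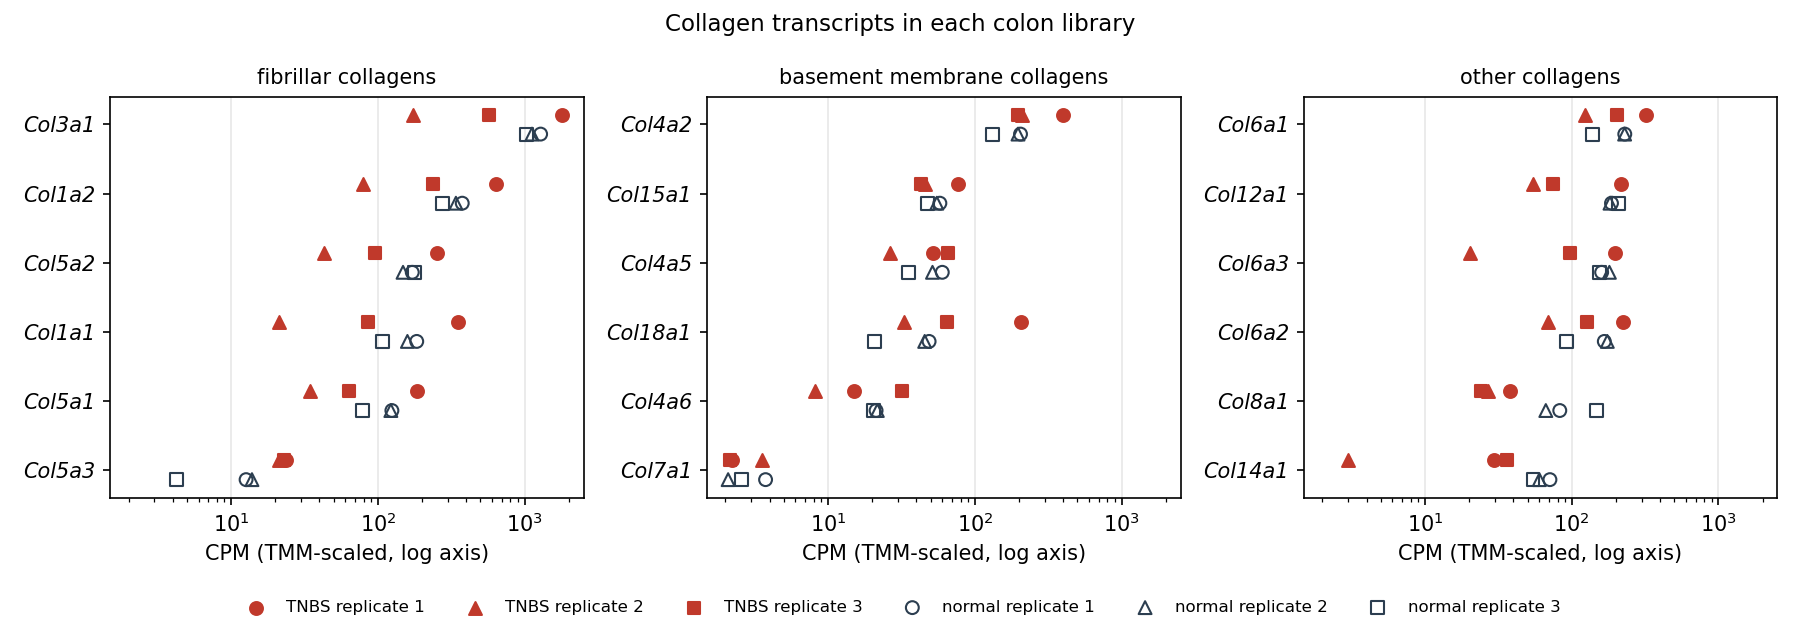
CPM on a log axis for the 6 members with the most counts in each class, with filled symbols for the 3 TNBS libraries and open symbols for the 3 normal ones. For Col1a1 the TNBS libraries lie at 354, 21.1 and 86.1 CPM, around the normal range of 108 to 184 CPM, while for Col8a1 they lie at 24.2 to 37.9 CPM, below all normal libraries.

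The fibroblast markers Pdgfra, Dcn, Lum, Dpt, Pi16, Fbln1, Mfap5, Cd34, Thy1 and Fap did not all follow the fibrillar collagens. Summed, they stood at 1277, 716 and 1025 CPM in TNBS replicates 1, 2 and 3, against 754, 781 and 1014 CPM in normal replicates 1, 2 and 3. Dcn was the largest part of this sum in every library, at 467 of the 716 CPM in TNBS replicate 2. In that library Pdgfra, Lum, Dpt, Pi16, Fbln1 and Mfap5 lay below their normal means, by log2 shifts of -0.52 to -2.55. Dcn, Cd34, Thy1 and Fap lay above theirs in it, by 0.42 to 0.74. All 10 were tested, none was at 0 in any library and none was called. In 3 of the 10 every TNBS library was above every normal one, where 15.3% of all genes tested were. Pdgfra, Lum, Dpt, Pi16, Fbln1, Mfap5 and Thy1 had the same order of TNBS libraries as Col1a1, and Dcn, Cd34 and Fap did not. Over all genes tested, 3870 of 14126 had TNBS replicate 1 highest and TNBS replicate 2 lowest of the TNBS libraries. Lum, a proteoglycan of collagen fibrils, was at 209.9, 19.2 and 62.8 CPM in TNBS replicates 1, 2 and 3. It was at 81.8, 95.5 and 149 CPM in normal replicates 1, 2 and 3. Dcn, another fibril-binding proteoglycan, was at 558, 467 and 560.02 CPM in TNBS replicates 1, 2 and 3, against 313, 303 and 449 CPM in normal replicates 1, 2 and 3. The part of fibroblast number in the fibrillar values was not tested.

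The basement membrane collagens lay closer to normal than the fibrillar ones in TNBS replicates 2 and 3. Their 8 tested members had a median log2 fold change of -0.01, and none was called. Relative to the normal mean, the median log2 shift of this class was 0.86, -0.17 and 0.04 in TNBS replicates 1, 2 and 3. For the fibrillar class it was 0.81, -1.63 and -0.47. For the tested type IV members alone it was 1.18, -0.86 and 0.17, so that these lay further below normal in TNBS replicate 2 than their class. The summed counts of basement membrane members over those of fibrillar members gave ratios of 0.231, 0.862 and 0.372 in TNBS libraries, against 0.185, 0.195 and 0.154 in normal libraries. All 3 TNBS ratios were above all normal ones.

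Col4a2, a chain of the type IV network under epithelium and endothelium, was at 397, 211 and 196 CPM in TNBS replicates 1, 2 and 3. It was at 205, 197 and 132 CPM in normal replicates 1, 2 and 3, so that the groups overlapped narrowly (log2 fold change 0.59, SE 0.30, edgeR adjusted p = 0.297). Set against Col3a1 in the same library, Col4a2 counts gave ratios of 0.221, 1.22 and 0.343 in TNBS libraries and 0.159, 0.175 and 0.128 in normal ones. The ratio was higher in every TNBS library than in any normal one. Such ratios carry the lengths of both genes and are compared only between libraries.

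Col18a1 and Col15a1 encode the multiplexins, basement membrane collagens around vessels whose ends are released as endostatin-type fragments. Col18a1 was at 207, 32.7 and 65.1 CPM in TNBS replicates 1, 2 and 3, against 48.8, 45.6 and 20.7 CPM in normal replicates 1, 2 and 3. TNBS replicates 1 and 3 were above all normal libraries and TNBS replicate 2 was among them (log2 fold change 1.41, SE 0.61, edgeR adjusted p = 0.229). Without TNBS replicate 1 its log2 fold change was 0.35. Col15a1 was at 77.2, 46.1 and 42.7 CPM in TNBS replicates 1, 2 and 3, against 57.8, 55.1 and 47.6 CPM in normal replicates 1, 2 and 3 (log2 fold change 0.05, SE 0.25, edgeR adjusted p = 0.924).

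Endothelial cells lie on such a membrane, and 2 of their 8 markers were called higher in TNBS colon, where 0.906% of all genes tested were. These were Cdh5 (log2 fold change 1.27, edgeR adjusted p = 0.0360) and Vwf (1.30, edgeR adjusted p = 0.0447). All 8 were detected in every library, and in 7 of them every TNBS library was above every normal one, where 15.3% of all genes tested were. Emcn overlapped between groups, with a log2 fold change of 0.36. The endothelial sum was highest in TNBS replicate 2, where Col18a1 was lowest of the TNBS libraries. Its part in the basement membrane values was not tested.

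Col4a5 and Col4a6, which lie head to head 1308 bases apart on the X chromosome and whose chains occur in smooth muscle basement membranes, overlapped between groups. Col4a5 was at 51.6, 26.2 and 66.05 CPM in TNBS replicates 1, 2 and 3, against 60.03, 51.5 and 35.5 CPM in normal replicates 1, 2 and 3 (log2 fold change -0.03, SE 0.33). Col4a6 was at 14.99, 8.15 and 31.8 CPM in TNBS replicates 1, 2 and 3, against 21.2, 21.7 and 20.5 CPM in normal replicates 1, 2 and 3 (log2 fold change -0.20, SE 0.42). TNBS replicate 3 was the highest library for both, while TNBS replicate 1 was the highest for 7 of the 9 tested fibrillar genes. Col7a1, the anchoring fibril collagen of stratified epithelia, ranged from 2.16 to 3.56 CPM in TNBS colon and from 2.08 to 3.75 CPM in normal colon (log2 fold change -0.09, SE 0.52). Col4a3 and Col4a4, chains best known from the kidney filter, had at most 1.41 CPM in any TNBS library and at most 2.05 CPM in any normal one. Their log2 fold changes were 0.00 (SE 1.25) and -0.56 (SE 1.48), with intervals too wide to show a difference at this depth.

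Col4a1, whose product normally assembles with that of Col4a2, was nearly without counts in the table. It had 16, 0 and 0 counts in TNBS replicates 1, 2 and 3 and 7, 0 and 0 in normal replicates 1, 2 and 3. Col4a2 had 2613 to 8739 counts in the same libraries. The genes lie head to head on chromosome 8, share 22 bases of exon on opposite strands, and no stretch of 50 bases of Col4a1 transcripts was found in a transcript of another gene. The cause of the low Col4a1 counts was not tested, and nothing is drawn from them about Col4a1 in the tissue.

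**Figure D3:**
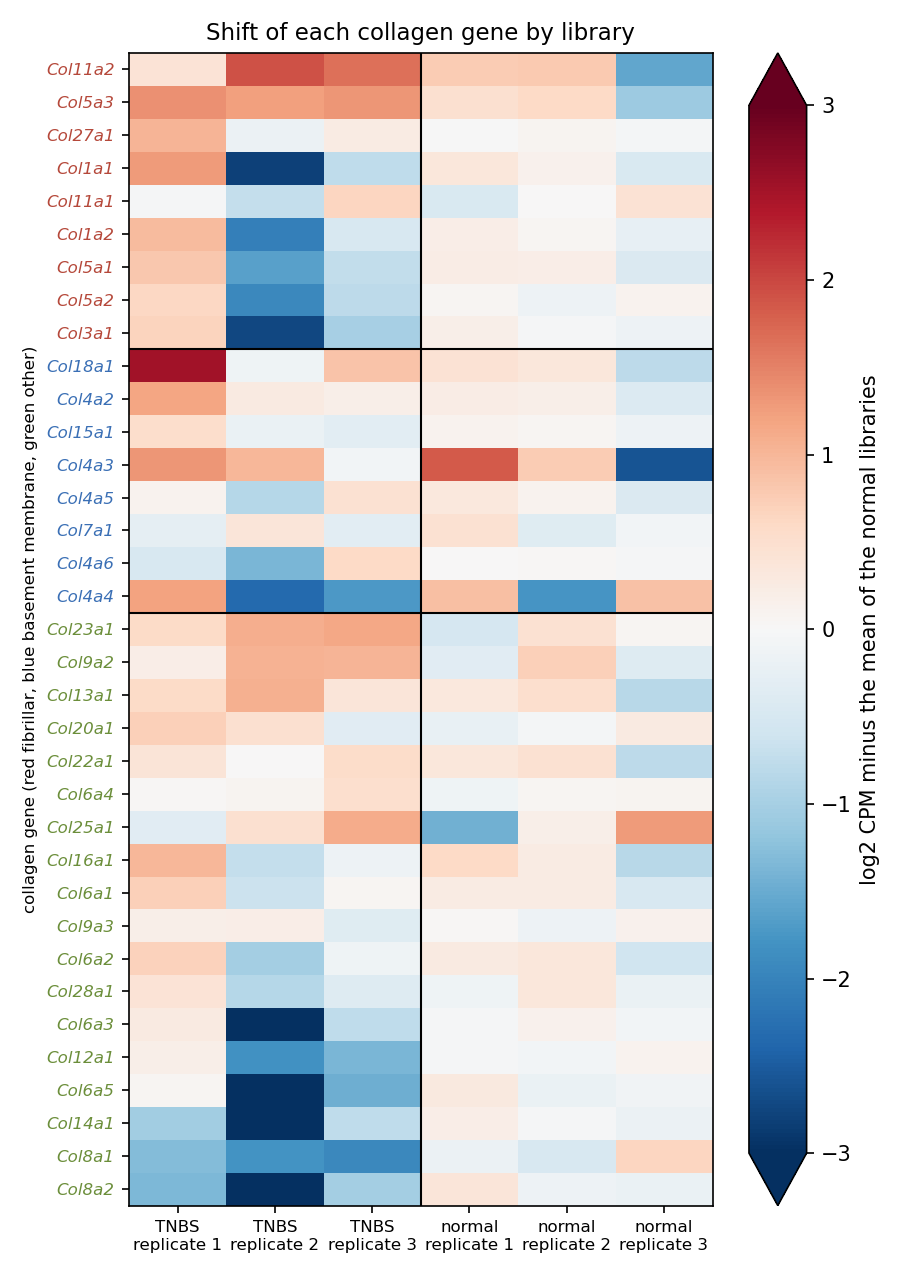
Log2 CPM of each tested collagen gene (one line per gene, grouped as fibrillar, basement membrane and other) minus its mean in normal libraries, by library, with red for above and blue for below. For Col1a1, Col1a2, Col3a1, Col5a1 and Col5a2, TNBS replicate 1 is red and TNBS replicate 2 is blue; the fibrillar class medians are 0.81 and -1.63 in these libraries.

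The other collagens held the lowest fold changes of the family. Their 18 tested members had a median log2 fold change of 0.07, with 10 above 0 and 8 below 0. In 3 of them (Col8a1, Col8a2 and Col14a1) every TNBS library was below every normal one, and in Col23a1 every TNBS library was above. Over all 35 tested collagens 2 were apart in the higher direction and 3 in the lower direction, where 15.3% and 14.8% of all genes tested were. The share of collagens whose groups did not overlap was thus 14.3%, below the 30.1% of all genes tested.

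Type VI collagen forms the beaded filaments around cells, and its chains are built mainly from Col6a1, Col6a2 and Col6a3. Col6a1 was at 319, 124 and 202 CPM in TNBS replicates 1, 2 and 3, against 229.9, 229 and 139 CPM in normal replicates 1, 2 and 3 (log2 fold change 0.11, SE 0.34). Col6a2 was at 225, 69.0 and 127 CPM in TNBS replicates 1, 2 and 3, against 167, 175 and 92.3 CPM in normal replicates 1, 2 and 3 (log2 fold change -0.04, SE 0.40). These neighbours on chromosome 10 kept a similar ratio in all libraries, 0.557 to 0.704 of Col6a2 to Col6a1 counts in TNBS colon and 0.664 to 0.762 in normal colon. Col6a3 did not keep to them. It was at 198, 20.3 and 97.5 CPM in TNBS replicates 1, 2 and 3, against 159.9, 181 and 155 CPM in normal replicates 1, 2 and 3 (log2 fold change -0.65, SE 0.60, edgeR adjusted p = 0.561). The ratio of Col6a3 to Col6a1 counts was 0.620, 0.164 and 0.482 in TNBS libraries and 0.696, 0.787 and 1.11 in normal libraries, without overlap.

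Col6a5, a chain that can stand in for that of Col6a3, was at 15.2, 1.55 and 5.18 CPM in TNBS replicates 1, 2 and 3, against 17.9, 12.7 and 13.6 CPM in normal replicates 1, 2 and 3 (log2 fold change -1.001, SE 0.65, edgeR adjusted p = 0.398). TNBS replicates 2 and 3 were below all normal libraries and TNBS replicate 1 was within their range. Col6a4, which lies beside it on chromosome 9, stayed at 32.3 to 45.2 CPM in TNBS colon and 28.8 to 33.7 CPM in normal colon (log2 fold change 0.22, SE 0.21).

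Col12a1 and Col14a1 belong to the collagens that sit on the surface of fibrils. Col12a1 was at 216, 54.2 and 74.2 CPM in TNBS replicates 1, 2 and 3, against 187, 182 and 208 CPM in normal replicates 1, 2 and 3 (log2 fold change -0.74, SE 0.44, edgeR adjusted p = 0.363). Without TNBS replicate 1 its log2 fold change was -1.58 (edgeR adjusted p = 0.00644). Col14a1 was at 29.7, 2.97 and 36.3 CPM in TNBS replicates 1, 2 and 3, against 71.0, 60.2 and 54.5 CPM in normal replicates 1, 2 and 3. All TNBS libraries were below all normal ones, TNBS replicate 2 by far the furthest, and the difference did not pass the test (log2 fold change -1.43, SE 0.66, edgeR adjusted p = 0.255). In contrast to the fibrillar genes, Col14a1 in TNBS replicate 1 was below all normal libraries.

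Col23a1, a collagen anchored in the cell membrane, had the largest log2 fold change among the other collagens. It was at 35.7, 50.5 and 53.5 CPM in TNBS replicates 1, 2 and 3, against 16.8, 32.6 and 24.7 CPM in normal replicates 1, 2 and 3. All TNBS libraries were above all normal ones, and TNBS replicate 1 was the lowest of them (log2 fold change 0.91, SE 0.28, edgeR adjusted p = 0.125). DESeq2 called it, with an adjusted p of 0.0412. The 3 tested membrane-anchored members, Col13a1, Col23a1 and Col25a1, all had log2 fold changes above 0, from 0.17 to 0.91, where 7141 of 14126 genes tested were above 0. Col13a1 and Col25a1 overlapped between groups. The median log2 shift of the 3 members was 0.58, 1.06 and 1.12 in TNBS replicates 1, 2 and 3. It was -0.50, 0.45 and 0.05 in normal replicates 1, 2 and 3. Col9a2, a fibril-surface collagen of cartilage, was at 1.86, 3.43 and 3.39 CPM in TNBS replicates 1, 2 and 3, against 1.27, 2.72 and 1.21 CPM in normal replicates 1, 2 and 3 (log2 fold change 0.73, SE 0.59, edgeR adjusted p = 0.505).

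The remaining tested members, Col9a3, Col16a1, Col20a1, Col22a1 and Col28a1, had log2 fold changes from -0.20 to 0.34, and none passed the test. The members under the filter, beside Col2a1, Col24a1 and Col4a1, were Col6a6, Col9a1, Col17a1, Col19a1 and Col26a1. They had at most 19 counts in any TNBS library and at most 15 in any normal one. Col17a1, the hemidesmosome collagen of stratified epithelia, had 10, 0 and 4 counts in TNBS libraries and 14, 0 and 0 in normal ones.

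**Figure D4:**
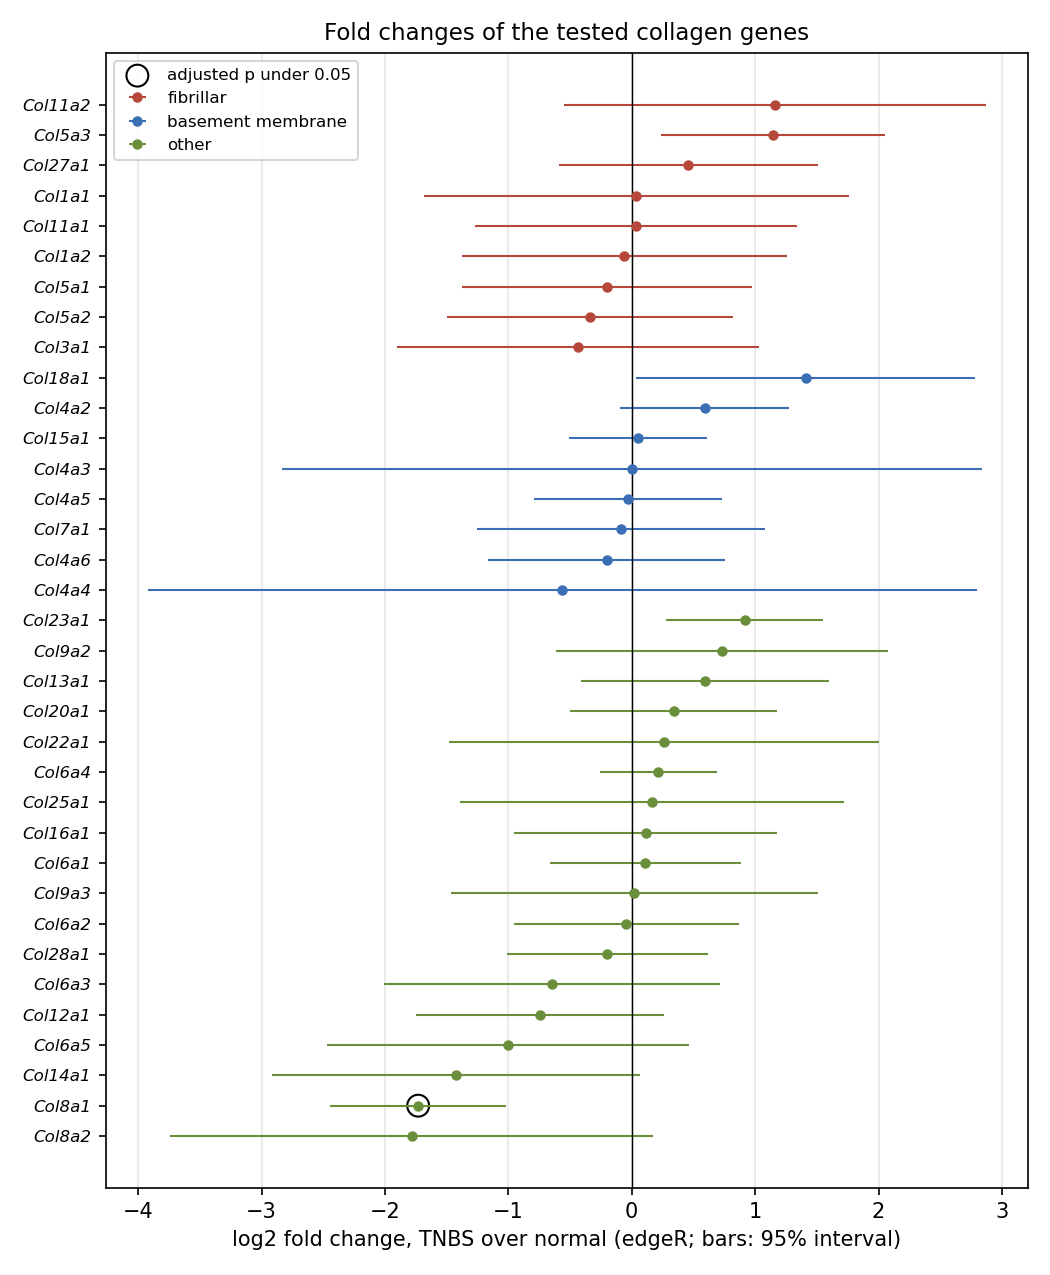
Log2 fold change of TNBS over normal colon (horizontal axis) for the 35 tested collagen genes, by class, with bars for the 95% interval of the edgeR fit and a ring around Col8a1, the only gene with an adjusted p under 0.05. The bar of Col8a1 lies below 0 and those of Col5a3, Col18a1 and Col23a1 lie above 0, while the other bars cross 0.

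The balance between chains that are made together was also compared within each library. The ratio of Col3a1 to Col1a2 counts was 2.83, 2.18 and 2.42 in TNBS libraries and 3.42, 3.30 and 3.73 in normal libraries. It was lower in every TNBS library, TNBS replicate 1 included, than in any normal one. The ratio of Col1a1 to Col1a2, whose products join in type I collagen, was 0.556, 0.266 and 0.364 in TNBS libraries and 0.490, 0.467 and 0.390 in normal libraries, and the groups overlapped. The ratio of Col5a3 to Col5a1 was 0.128, 0.618 and 0.364 in TNBS libraries and 0.102, 0.113 and 0.0538 in normal libraries, higher in all TNBS libraries. With 3 libraries against 3 the smallest two-sided p of an exact permutation test is 0.10, so that test could not pass 0.05. The ratios are given as a description, and no test of them was run. Of the 12 ratios computed, 5 did not overlap between groups.

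The genes whose products modify, export, cut, cross-link, bind, sense and degrade collagen gave a wider view of the pathway. The list held 66 genes, 64 of them in the table and 59 tested. Of these 2 were called higher and none lower, where 0.906% of all genes tested were called higher and 1.14% lower; their median log2 fold change was 0.03. Groups did not overlap for 10 that were higher and 4 that were lower, where 15.3% and 14.8% of all genes tested did so.

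Lox, the lysyl oxidase that starts the cross-links between collagen chains, rose in TNBS colon. It was at 77.3, 55.1 and 40.7 CPM in TNBS replicates 1, 2 and 3, against 16.2, 15.7 and 26.2 CPM in normal replicates 1, 2 and 3. All TNBS libraries were above all normal ones, also TNBS replicate 2 in which the fibrillar collagens were lowest (log2 fold change 1.57, SE 0.30, edgeR adjusted p = 0.0388). The log2 fold change was 1.30 to 1.86 when a library was left out. The call held without TNBS replicate 1 (edgeR adjusted p = 0.0325) and was lost without TNBS replicate 2, TNBS replicate 3 or any of the normal replicates (edgeR adjusted p = 0.0513 to 0.175).

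Mmp8, the neutrophil collagenase that cuts fibrillar collagen, rose in TNBS colon and was nearly without counts in normal colon. It had 92, 104 and 57 counts in TNBS replicates 1, 2 and 3 and 0, 1 and 0 counts in normal replicates 1, 2 and 3. The ratio of summed scaled counts was 288, with an exact 95% interval of 51.2 to 11411 that covers counting error only (edgeR adjusted p = 0.0128). The call was lost without normal replicate 2 (edgeR adjusted p = 0.0721) or normal replicate 3 (edgeR adjusted p = 0.0511). Timp1, an inhibitor of the matrix metalloproteinases named after its values were seen, was at 9.77, 8.28 and 4.36 CPM in TNBS libraries, against 1.92, 0.680 and 1.31 CPM in normal ones, just outside the threshold (log2 fold change 2.51, SE 0.54, edgeR adjusted p = 0.0533). The neutrophil marker S100a8, in the leukocyte list, was called higher, where 0.906% of all genes tested were. It was at 10.996, 42.3 and 17.96 CPM in TNBS libraries, against 0.349, 0 and 0.151 CPM in normal ones. The other 5 leukocyte markers were not called, and the part of leukocyte number in the Mmp8 value was not tested.

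In the other roles no gene was called, and the member furthest from 0 is given for each. P3h4, part of a complex that modifies collagen lysines, was higher (log2 fold change 1.07, edgeR adjusted p = 0.181). Mia3, which builds the large carriers that export procollagen, was lower (-0.86, edgeR adjusted p = 0.221). Of the 9 folding and export genes, 0 were apart in the higher direction and 2 in the lower direction, where 15.3% and 14.8% of all genes tested were. Tll1, a protease of procollagen ends, had a log2 fold change of 0.86 (edgeR adjusted p = 0.313). Fmod, a proteoglycan that guides fibril assembly, had a log2 fold change of -2.17 (SE 0.95, edgeR adjusted p = 0.236). It was at 1.36, 0.194 and 0.103 CPM in TNBS libraries, against 2.84, 2.99 and 1.87 CPM in normal ones. The values in TNBS replicates 2 and 3 lay at or under the 3 counts read as detection. Itga10, a collagen-binding integrin subunit, had a log2 fold change of 1.17 (edgeR adjusted p = 0.326). The median log2 fold change by role ran from -0.42 for folding and export to 0.84 for degradation.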

How the data were processed

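RNA of 3 TNBS and 3 normal colon samples was sequenced, and the labels gave each sample's group and replicate number. The values used are raw read counts, which the authors deposited in 1 table of genes by libraries, per the file headers. A second set of 6 columns of normalised values was not used. CASAVA 1.8, HISAT2 and mm10 are named in the submitters' processing notes; how reads were counted, with which annotation and with or without strand, is not given in the sources used here. All 16906 genes of the table are protein-coding. Coordinates come from GENCODE vM21 (GRCm38, which is mm10), where 16732 identifiers matched. Members overlapped exons of other genes by at most 6.07% of their exon length (Col9a3 with Tcfl5), so counts taken without strand could be shared there.

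Low counts were removed by filterByExpr (minimum count 10, minimum total 15; 14126 genes left), and the rest were scaled with TMM and fitted with edgeR 4.0.16 in R 4.3.3 (glmQLFit and glmQLFTest, group as the only term, two-sided, Benjamini-Hochberg over all genes tested, threshold 0.05). Standard errors are the absolute log2 fold change over the square root of F. Log2 CPM carry a prior count of 2. Alternatives were RLE size factors, library totals, DESeq2 1.42.0, limma-voom (limma 3.58.1), no filter, a replicate block, each library left out, and TNBS replicate 1 or 2 alone. The steps were tested on simulated data. Within a group, chi-square over degrees of freedom was 36.5 to 167 between libraries, so none was a copy. The labels do not say how the samples relate to animals, so the p-values stand for the spread among samples, which may be technical.

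Same-numbered libraries did not deviate together. Named genes were the called collagens, in each class the 6 with the most counts and the 2 highest and 2 lowest log2 fold changes, and the called partner genes with the furthest of each role. Members and lists were chosen with earlier results of these data known. Of the other lists, pericyte markers summed to 1380, 1030.0 and 1208 CPM in TNBS libraries and 562, 856 and 1559 in normal ones. Of these 5 markers 1, Kcnj8, was called higher, where 0.906% of all genes tested were. In 3 of the 5 every TNBS library was above every normal one, where 15.3% of all genes tested were. Enteric glia and neurons summed to 30.3 to 46.8 CPM in TNBS libraries and 36.5 to 52.1 in normal ones. Skeletal muscle summed to 9.09 to 22.2 and 11.7 to 15.5, and fat and mesothelium to 0.0646 to 15.9 and 3.97 to 13.0. No marker of enteric glia and neurons, of skeletal muscle or of fat and mesothelium was called.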

Additional observations from a re-analysis of the deposited data

How the results depend on the processing

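Only Col8a1 was called with RLE size factors, library totals, limma-voom, no low-count filter and the replicate block (153 genes higher and 207 lower with the block); same-numbered libraries correlated at 0.01, 0.01 and 0.04. DESeq2 called 1 collagen higher, 4 partner genes higher and 1 lower. Leaving out a library gave 0 to 4 collagens lower, 0 to 2 partner genes higher and 0 to 5 lower, 7 to 532 genes higher and 11 to 576 lower. TNBS replicate 2 alone gave 10 collagens lower, 1 partner gene higher and 6 lower, 338 genes higher and 480 lower; TNBS replicate 1 alone gave 0 collagens lower, 0 partner genes higher, 30 genes higher and 33 lower. Over all genes, 128 were called higher and 161 lower, against 196 and 102 with library totals, 666 and 679 with DESeq2, 80 higher with limma-voom and 209 higher without the filter. The fibrillar median log2 fold change was -0.51 to 0.40 with a library left out, -0.49 with limma-voom and -0.50 with the replicate block. The median was -1.24 for fibrillar and -0.72 for other collagens with TNBS replicate 2 alone, 0.53 for basement membrane collagens with TNBS replicate 1 alone, and -0.29 to 0.27 for other collagens with a library left out.

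Of 490 values for single collagens, 400 kept their direction and side of the threshold, 13 passed it, 7 fell short of it and 70, in 24 genes, had the other sign; 69 of the 70 did not pass the test and neither did the value they are set against. These counts include the fits with TNBS replicate 1 or 2 alone, whose spread comes from the normal libraries only. Among log2 fold changes of the other sign, TNBS replicate 2 alone gave -2.84 for Col1a1, -0.69 for Col6a1, 0.34 for Col7a1, -0.81 for Col11a1, -0.22 for Col15a1, -0.85 for Col16a1, -0.24 for Col18a1, -0.11 for Col22a1 and -0.20 for Col27a1. TNBS replicate 1 alone gave 0.95 for Col1a2, 0.65 for Col3a1, 0.90 for Col4a4, 0.076 for Col4a5, 0.78 for Col5a1, 0.62 for Col5a2, 0.64 for Col6a2, 0.27 for Col6a3, 0.050 for Col6a5, -0.071 for Col11a1, 0.17 for Col12a1, -0.73 for Col25a1 and 0.40 for Col28a1. Library totals gave 0.10 for Col1a2, 0.11 for Col4a5, 0.10 for Col6a2 and 0.038 for Col7a1. For Col1a1 limma-voom gave -0.72 and the replicate block -0.69; for Col11a1 the block gave -0.027, and for Col4a3 RLE size factors gave -0.0022. With a library left out, 18 genes spanned 0: Col1a1 (-1.49 to 0.55), Col1a2 (-1.07 to 0.40), Col3a1 (-1.62 to 0.051), Col4a3 (-0.57 to 1.10), Col4a5 (-0.33 to 0.26), Col4a6 (-0.86 to 0.15), Col5a1 (-1.15 to 0.20), Col5a2 (-1.26 to 0.082), Col6a1 (-0.29 to 0.39), Col6a2 (-0.56 to 0.28), Col7a1 (-0.35 to 0.19), Col9a3 (-0.077 to 0.19), Col11a1 (-0.39 to 0.32), Col15a1 (-0.27 to 0.21), Col16a1 (-0.53 to 0.43), Col22a1 (-0.059 to 0.51), Col25a1 (-0.27 to 0.99) and Col28a1 (-0.63 to 0.048). The cause was not tested. The intervals of Col4a3 and Col4a4 are wide, and 8 members had too few counts to be tested.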
